A study of Mus musculus with 8 samples.

Results

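The genes described here are the keratins, the small proline-rich proteins (Sprr) and the late cornified envelope proteins (Lce), taken as every gene in the count table whose symbol begins with Krt and a number, with Sprr or with Lce. They were 93 of 55421 genes: 55 keratin, 17 Sprr and 21 Lce genes. The families were chosen by 2 values measured in these same libraries, since Sprr3 was far higher and Lce1g far lower after NRRA, so the NRRA comparisons of these genes are given below as descriptions, without p-values, and nothing is read from how many passed a threshold. Gene expression was measured by RNA-seq in 8 libraries from primary cultures of mouse spermatogonia (SSC culture) on a C57BL/6XDBA/2 background, with 2 libraries for each of 4 groups. The cultures were Stra8KO or Spo11KO, and each genotype received vehicle (Veh) or NRRA, the nutrient restriction medium with retinoic acid. Wild-type cultures were not analysed here.

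Cultures of all 4 groups were grown with N2, bFGF and GDNF on irradiated mouse embryonic fibroblasts. These served as feeder cells, so RNA of the feeders may be part of each library. In the paper, nutrient restriction medium is the complete culture medium diluted with a balanced salt solution. The NRRA cultures thus received less N2, bFGF and GDNF during treatment than the Veh cultures. In bulk samples, fewer cells of a type and less RNA per cell cannot be told apart. Library totals ranged from 20960794 to 27038868 counts. Levels are in CPM, each gene's count per 1e+06 scaled counts of the library, and pairs of values are replicates 1 and 2 of a group in that order. Stra8 had 2 and 0 counts in Veh and 169 and 170 in NRRA for Stra8KO, and 28 and 12 in Veh and 12604 and 16191 in NRRA for Spo11KO. Spo11 counts in the libraries labelled Spo11KO were not below those of Stra8KO, with 72 and 75 counts in Veh against 32 and 31 in Stra8KO Veh, so gene counts do not check that label. Summed levels of 16 fibroblast markers were 25348 to 25924 CPM in Veh and 40483 to 40972 CPM in NRRA for Stra8KO, and 13355 to 13427 CPM in Veh and 20612 to 21321 CPM in NRRA for Spo11KO. Summed levels of 8 germ cell markers ran the other way between genotypes, at 763 to 771, 952 to 994, 1590 to 1616 and 1761 to 1820.1 CPM in the same order of groups. The study's reporting summary describes sequencing replicates as independent and biological. Whether replicates were separate cultures of a line or separate lines is not given in the sources used here, and the p-values below measure the spread between these libraries.

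Keratins are the intermediate filament proteins of epithelial cells, and a type I keratin pairs with a type II keratin to build a filament. When keratinocytes cornify, transglutaminases cross-link small proline-rich proteins, late cornified envelope proteins, involucrin and loricrin into an envelope beneath the plasma membrane, and most of these proteins are encoded side by side in the epidermal differentiation complex. Retinoids are known for altering keratin and envelope gene expression in skin. In the testis, Krt18 and Krt8 are best known from immature Sertoli cells.

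Most of the genes were close to silent in these cultures. A total of 10 had no count in any library, and 55, these included, had fewer than 10 counts over all 8. The remaining low genes brought the number that did not pass the filter on low counts to 64, and none of these had a group mean above 0.571 CPM or more than 44 counts in all. The 29 genes that passed comprised 9 Sprr, 4 Lce and 16 keratin genes. All 7 keratins grouped here as simple epithelial passed (Krt7, Krt8, Krt18, Krt19, Krt20, Krt23 and Krt80), against 0 of 16 hair keratins and 0 of 3 basal keratins. Of the remaining classes, 4 of 8 inner root sheath, 2 of 11 suprabasal, 1 of 5 activation and 2 of 5 other keratins passed. Krt5 and Krt14, the keratin pair of basal keratinocytes, had 3 and 7 counts over all libraries. A gene high in a single group passes such a filter, so counts over the 29 do not describe the families as a whole.

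Sprr3, a cross-linked protein of the envelopes of oesophagus and other internal stratified epithelia, had 0 and 0.10 CPM in Stra8KO Veh and 16.8 and 18.2 CPM in Stra8KO NRRA. In Spo11KO it had 0 and 0.087 CPM in Veh and 6.52 and 7.54 CPM in NRRA. All 4 NRRA libraries were above all 4 Veh libraries, and the Stra8KO NRRA libraries were the highest. Each Veh group held 2 counts in total, so the ratio of NRRA to Veh was 369.6 in Stra8KO (95% exact counting interval 102 to 3057) and 165 in Spo11KO (45.4 to 1367). Such intervals cover counting error only. Sprr3 spans 92456502 to 92458720 of chromosome 3 on the minus strand (GRCm38, GENCODE M21, protein coding).

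Lce1g, an envelope protein gene expressed late in epidermal differentiation, showed the opposite order. It had 12.6 and 13.5 CPM in Veh and 0.53 and 0.37 CPM in NRRA for Stra8KO, and 4.30 and 3.92 CPM in Veh and 0.23 and 0.10 CPM in NRRA for Spo11KO. The Veh libraries of each genotype were above its NRRA libraries, and Stra8KO Veh was the highest group. The log2 difference of NRRA minus Veh was -4.85 ± 0.24 (SE) in Stra8KO and -4.61 ± 0.33 in Spo11KO, or 28.8-fold and 24.4-fold lower levels after NRRA. Lce1g spans 92750148 to 92752338 of chromosome 3 on the minus strand.

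The bases upstream of the start are shown for Sprr3 and Lce1g, on which the families were chosen, and for Sprr2h and Sprr2k. The last 2 are nearby genes of similar upstream sequence whose levels differed in opposite directions after NRRA. For Sprr2k the log2 difference was 1.66 ± 0.25 in Stra8KO. In Spo11KO it was 0.46 ± 0.28, which was not past the threshold on the adjusted p used below. Each line gives the 250 bases before the RefSeq start in GRCm38.p6, 5′ to 3′ on the gene's strand. Capitals mark matches, on either strand, to TATAAA, to TGANTCA (an AP-1 motif), to AGGTCA (a retinoid receptor half-site) and to GGAAGT (an ETS core).
Sprr3 (chr3:92458721-92458970, minus strand): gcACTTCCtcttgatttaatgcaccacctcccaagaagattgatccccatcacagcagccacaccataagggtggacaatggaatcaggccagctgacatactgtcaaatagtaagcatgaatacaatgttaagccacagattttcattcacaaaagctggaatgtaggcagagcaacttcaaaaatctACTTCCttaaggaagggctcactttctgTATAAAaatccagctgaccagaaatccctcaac
Lce1g (chr3:92752339-92752588, minus strand): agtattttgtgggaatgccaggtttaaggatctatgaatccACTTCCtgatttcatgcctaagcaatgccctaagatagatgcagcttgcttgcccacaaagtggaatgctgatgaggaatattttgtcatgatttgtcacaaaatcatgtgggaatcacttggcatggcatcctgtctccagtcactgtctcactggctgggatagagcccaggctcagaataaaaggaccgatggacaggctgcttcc
Sprr2h (chr3:92385435-92385684, plus strand): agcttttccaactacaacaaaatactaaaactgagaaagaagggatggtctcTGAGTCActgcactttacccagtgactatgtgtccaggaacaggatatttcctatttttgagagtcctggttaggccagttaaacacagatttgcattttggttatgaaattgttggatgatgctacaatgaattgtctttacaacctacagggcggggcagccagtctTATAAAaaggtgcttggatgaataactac
Sprr2k (chr3:92432332-92432581, plus strand): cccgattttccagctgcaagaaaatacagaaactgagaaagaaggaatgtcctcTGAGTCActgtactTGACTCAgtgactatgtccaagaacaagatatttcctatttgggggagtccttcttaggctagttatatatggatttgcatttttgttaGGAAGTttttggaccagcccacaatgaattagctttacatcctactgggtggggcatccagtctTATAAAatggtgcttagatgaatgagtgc
Upstream windows were found for 24 of the 29 genes that passed the filter. TATAAA was in all 8 Sprr windows, in 0 of 3 Lce and in 7 of 13 keratin windows, against 12.4% of the 32851 windows of this length. Only the exact letters were searched, so similar sequences were not counted. The AP-1 letters were in 7 of 8 Sprr windows, Sprr3 being the exception, and in 0 of 3 Lce and 0 of 13 keratin windows, against 6.75% of all windows. The Sprr2 windows resemble each other and each held a match 193 to 198 bases upstream, so they are not independent windows. GGAAGT was in 3 of 8 Sprr, 3 of 3 Lce and 3 of 13 keratin windows (19.7% of all), and AGGTCA in 0 of 8, 0 of 3 and 4 of 13 (14.0% of all). The Sprr2h and Sprr2k windows were identical at 80.6% of aligned positions, whereas Sprr2h shared 63.3% to 65.3% with Sprr2b, Sprr2d, Sprr2e and Sprr2i. The closest pair of Sprr2 windows was Sprr2d and Sprr2e, at 89.3%. A match to these letters is a description and does not show that a factor binds there.

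All 38 Sprr and Lce genes lay within 803 kb of chromosome 3 (92215799 to 93019060), first the Sprr and then the Lce genes. The keratins lay on chromosome 11 (27 genes) and chromosome 15 (27 genes), apart from the pseudogene Krt8-ps on chromosome 7. The annotated transcripts of the 29 genes were largely distinct. Windows of 100 bases found in another gene made up 16.9% of the Krt8 transcript, shared with Krt8-ps, and at most 1.69% of any other. Krt7, Krt8, Krt10, Krt12, Krt75 and Krt80 overlap a gene on the opposite strand, and the strand setting of the counting is not given in the sources used here, so reads of these genes and of their antisense partners cannot be told apart.

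In Stra8KO, 9 of the 27 genes other than Sprr3 and Lce1g were past the threshold on the adjusted p as higher after NRRA (21.6% of all 20588 tested genes were) and 5 as lower (20.2% of all). In Spo11KO these counts were 5 higher (24.5% of all) and 14 lower (25.5% of all). The median log2 difference over the 27 genes was 0.24 in Stra8KO and -1.08 in Spo11KO, with medians of 0.01 over all tested genes in each. Since these comparisons were used to choose the families, no weight rests on these counts. With libraries scaled by total counts alone, 6492 of 10525 called genes were higher in Spo11KO, against 5038 of 10279 here.

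The Sprr2 genes, a tandem family of envelope cross-linkers, did not move as a block. Sprr2g, annotated as a polymorphic pseudogene, had 2.42 and 1.86 CPM in Veh and 14.0 and 14.2 in NRRA for Stra8KO, and 1.56 and 1.83 in Veh and 5.94 and 6.62 in NRRA for Spo11KO. The next gene along the chromosome, Sprr2h, had 5.68 and 5.44, 0.92 and 0.83, 3.16 and 4.44, and 0.23 and 0.20 CPM in the same order of groups. In neither genotype did the Veh and NRRA libraries overlap for these genes, and the directions were opposite: log2 differences were 2.71 ± 0.17 in Stra8KO and 1.89 ± 0.19 in Spo11KO for Sprr2g, and -2.66 ± 0.26 and -4.09 ± 0.33 for Sprr2h. Sprr2b followed Sprr2g, from 0.22 and 0.35 to 3.33 and 3.51 CPM in Stra8KO and from 0.25 and 0.13 to 1.81 and 1.26 CPM in Spo11KO. Sprr2k had 1.12 and 1.96 CPM in Veh and 3.86 and 5.72 in NRRA for Stra8KO, and 1.39 and 1.35 in Veh and 1.74 and 2.01 CPM in NRRA for Spo11KO. The NRRA libraries were thus above the Veh libraries of their genotype for Sprr2b and Sprr2k. Sprr2d was lower after NRRA mainly in Spo11KO, with 2.95 and 3.02 then 2.51 and 2.72 CPM in Stra8KO, and 4.72 and 3.31 then 1.47 and 1.54 CPM in Spo11KO. The summed level of all 13 Sprr2 genes was 11.9 ± 0.42 CPM (SD, n = 2) in Spo11KO Veh and 11.9 ± 0.12 CPM in Spo11KO NRRA, although its members moved apart, and it was 13.1 ± 0.19 and 27.03 ± 1.85 CPM in Stra8KO.

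Sprr1a, a small proline-rich gene also known for its induction in stressed and injured tissue, had 1.16 and 1.36 CPM in Veh and 3.86 and 6.23 in NRRA for Stra8KO, and 0.55 and 0.91 in Veh and 1.85 and 2.49 in NRRA for Spo11KO. Its libraries did not overlap between media in either genotype. Over the whole Sprr family, summed levels were 14.5 ± 0.34, 49.7 ± 4.70, 12.8 ± 0.22 and 21.1 ± 1.26 CPM in Stra8KO Veh, Stra8KO NRRA, Spo11KO Veh and Spo11KO NRRA.

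**Figure D1:**
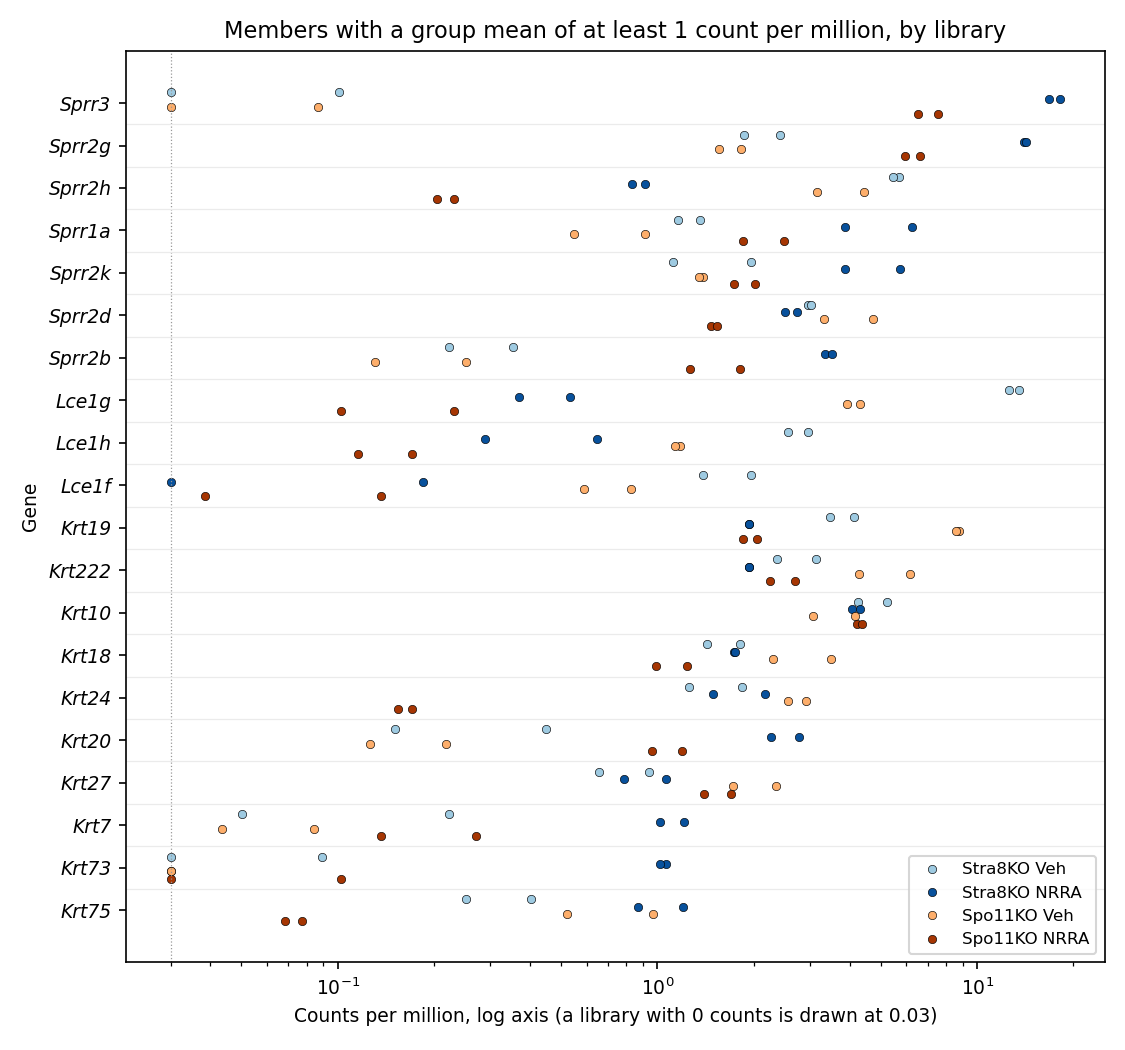
CPM on a log axis for the 20 genes with a group mean of at least 1 CPM, 1 point per library and 1 colour per group; libraries with 0 counts are drawn at 0.03 on the dotted line. For Sprr3 all 4 NRRA libraries lie at 6.52 CPM or above and the Veh libraries at 0.10 CPM or below, while the order of media is the reverse for Lce1g and Sprr2h.

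The other Lce genes lay on the same side as Lce1g. Lce1h had 2.95 and 2.57 CPM in Veh and 0.29 and 0.65 in NRRA for Stra8KO, and 1.18 and 1.13 in Veh and 0.12 and 0.17 in NRRA for Spo11KO. Lce1f had 1.39 and 1.96, 0 and 0.18, 0.59 and 0.83, and 0.039 and 0.14 CPM in the same order. Lce3a, of the Lce group known for induction in wounded and psoriatic skin, had 27 counts in Stra8KO Veh and 1 in Stra8KO NRRA, a ratio of 27.1 (95% exact counting interval 4.47 to 1109.8), and was at least 3.55-fold lower in Spo11KO NRRA, where it had 0 counts against 9 in Spo11KO Veh (floor of 3 counts over the group). All of the other 17 Lce genes were under the filter, the highest with 33 counts in all. The summed Lce level was 18.8 ± 0.84 CPM in Veh and 1.55 ± 0.42 in NRRA for Stra8KO, and 6.55 ± 0.03 in Veh and 0.577 ± 0.052 in NRRA for Spo11KO.

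**Figure D2:**
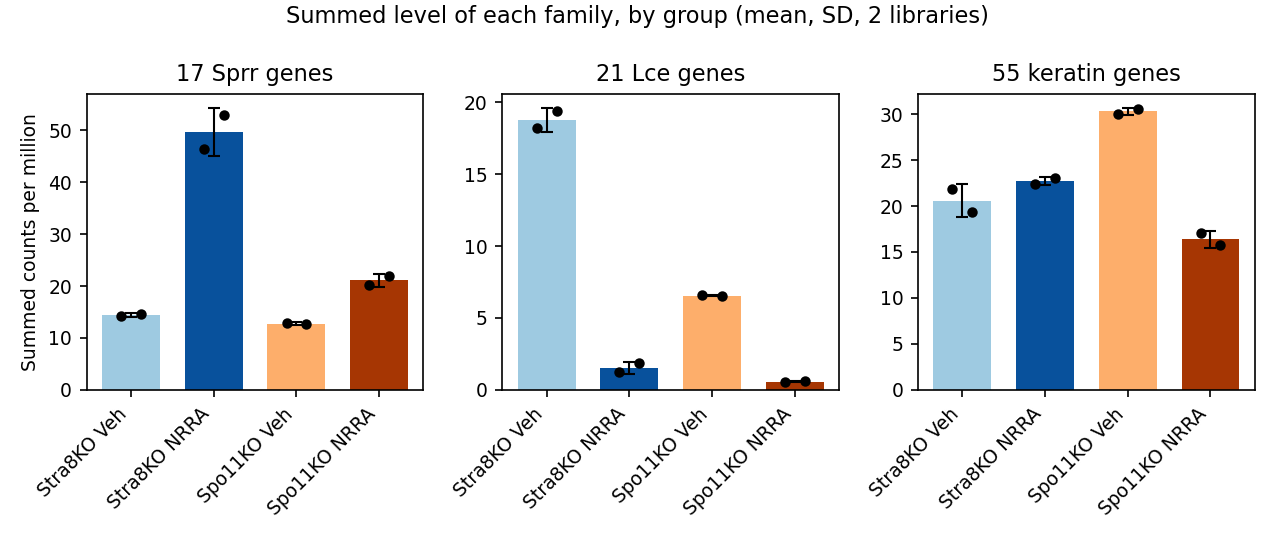
Summed CPM of the 17 Sprr, 21 Lce and 55 keratin genes by group; bars are means, error bars SD, and points the 2 libraries. Sprr sums are highest in Stra8KO NRRA (49.7 CPM), Lce sums in Stra8KO Veh (18.8 CPM) and keratin sums in Spo11KO Veh (30.3 CPM).

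Along chromosome 3, genes of these families and of the gene lists described below were placed in order. Of these, the tested genes from Ivl (involucrin) to Crct1 were all lower after NRRA in each genotype. The Sprr block before them held both directions. Lower levels were not confined to this range: log2 differences in Stra8KO and Spo11KO were -1.74 and -1.74 for Lelp1 and -0.19 and -0.83 for Tchh. For Lor they were 0.29 and -1.78. Other genes of this stretch were not examined. Involucrin, a scaffold of the envelope that is not a member of these families, had group means of 28.3, 6.31, 9.81 and 2.10 CPM in Stra8KO Veh, Stra8KO NRRA, Spo11KO Veh and Spo11KO NRRA. Ivl lay 70408 bases beyond Sprr4, the last Sprr gene.

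**Figure D3:**
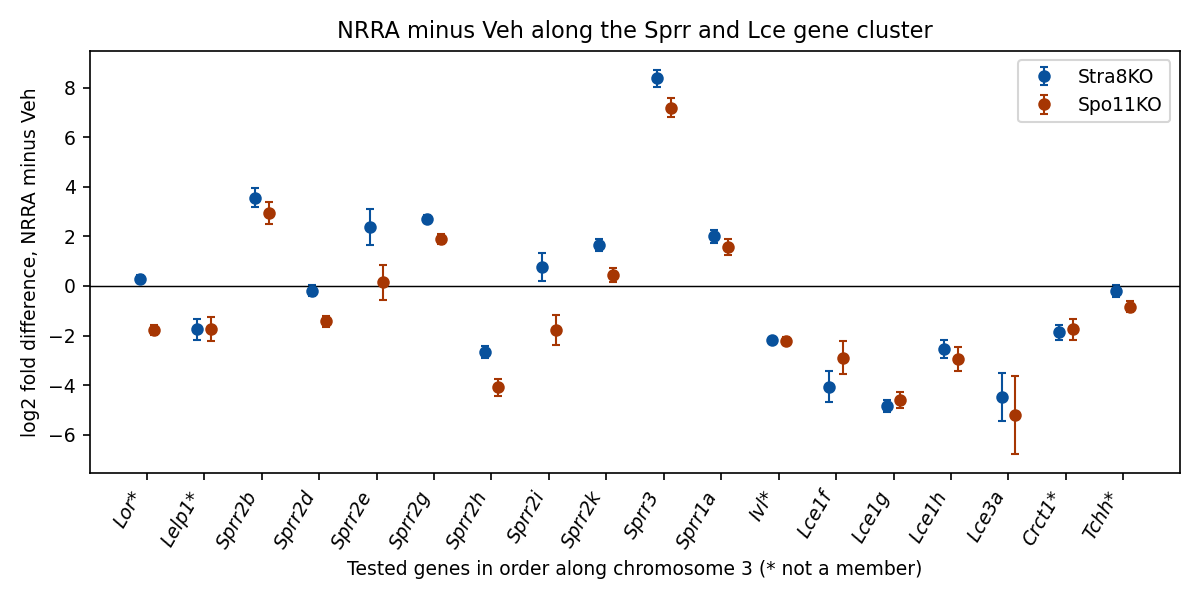
The log2 difference of NRRA minus Veh (± SE) in each genotype, in chromosomal order along the Sprr and Lce cluster of chromosome 3. Shown are genes of the 3 families and of the gene lists that passed the filter. Asterisks mark listed genes of the epidermal differentiation complex outside the 3 families, and other genes of the stretch are not shown. Sprr3 has the highest value in each genotype, and Lce1f, Lce1g, Lce1h and Lce3a are all below 0.

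The keratins grouped here as simple epithelial were the most complete class. Krt19, a type I keratin of simple and ductal epithelia, had 4.11 and 3.47 CPM in Veh and 1.93 and 1.94 in NRRA for Stra8KO, and 8.76 and 8.57 in Veh and 1.85 and 2.05 in NRRA for Spo11KO. It was highest in the Spo11KO Veh libraries and at one level in all 4 NRRA libraries. Krt18, its type I relative that pairs with Krt8, had 1.43 and 1.81, 1.74 and 1.75, 3.50 and 2.31, and 1.23 and 0.99 CPM in the same order. Krt20, a keratin of differentiated intestinal epithelium and urothelial surface cells, had 0.45 and 0.15, 2.27 and 2.77, 0.13 and 0.22, and 0.96 and 1.19 CPM. All 4 NRRA libraries were above all 4 Veh libraries for Krt20. Krt7, a type II keratin of glandular epithelia, reached 1.21 and 1.02 CPM in Stra8KO NRRA and stayed at 0.27 CPM or below in every other library.

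The other keratins with a group mean of at least 1 CPM belonged to several classes. Krt24, a type I keratin of differentiating epithelia, had 1.83 and 1.26 CPM in Veh and 1.50 and 2.17 in NRRA for Stra8KO, and 2.91 and 2.57 in Veh and 0.15 and 0.17 in NRRA for Spo11KO. The Spo11KO Veh libraries were the highest and the Spo11KO NRRA libraries the lowest, at a level 16.3-fold under Spo11KO Veh. Krt75, a type II keratin of the companion layer of the hair follicle, had 0.40 and 0.25, 0.87 and 1.20, 0.97 and 0.52, and 0.077 and 0.068 CPM, so that its NRRA libraries were above Veh in Stra8KO and below it in Spo11KO. Krt73, an inner root sheath keratin, had 44 counts in Stra8KO NRRA (1.06 and 1.02 CPM) against 2 in Stra8KO Veh, 0 in Spo11KO Veh and 3 in Spo11KO NRRA. Krt27, another inner root sheath keratin, had 0.94 and 0.65, 1.06 and 0.78, 1.73 and 2.35, and 1.70 and 1.40 CPM, and the Stra8KO libraries were the lower ones. Krt222, a keratin-like gene, had 2.37 and 3.12, 1.93 and 1.94, 4.25 and 6.18, and 2.70 and 2.25 CPM. Krt10, the type I keratin of suprabasal epidermis, varied little, with 5.23 and 4.23, 4.30 and 4.06, 3.07 and 4.13, and 4.21 and 4.37 CPM.

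Compared per kilobase of exon, the Sprr and Lce genes led. The highest levels were those of Lce1g in Stra8KO Veh (14.1 ± 0.67 CPM per kb, SD, n = 2), Sprr2g in Stra8KO NRRA (21.6 ± 0.19) and in Spo11KO NRRA (9.65 ± 0.73), and Sprr2d in Spo11KO Veh (5.89 ± 1.46). In Spo11KO Veh the next genes, Sprr2h at 5.05 ± 1.20, Krt19 at 4.67 ± 0.07 and Lce1g at 4.44 ± 0.29 CPM per kb, were within the spread of Sprr2d. Type I keratins outweighed type II keratins in each group, with summed levels of 8.07 against 1.00 CPM per kb in Stra8KO Veh, 8.48 against 1.71 in Stra8KO NRRA, 12.6 against 0.901 in Spo11KO Veh and 6.96 against 0.346 in Spo11KO NRRA. Krt8, the usual partner of Krt18 and Krt19, had no group mean of 1 CPM. This is the order of RNA levels in mixed cultures and says nothing of filaments.

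The genotype comparisons were not used to choose the families. In Veh, 3 of 3 tested Lce genes were called higher in Stra8KO and 6 of 16 tested keratins lower. Of the 27 genes tested, 5 were higher in Stra8KO than in Spo11KO (31.6% of all tested genes were) and 6 were lower (30.7% of all), by the quasi-likelihood test of edgeR, with p-values adjusted by the Benjamini-Hochberg method across every gene tested, as for each adjusted p below. Both shares were under the background, so nothing is read from these counts about the families. Over the 27 genes the median log2 difference was 0.35, or 0.16 with genes of 3 or fewer counts in the lower group set to their bound or ratio, against 0.00 over all tested genes.

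All 3 Lce genes tested were higher in Stra8KO Veh, and Lce1h had the smallest adjusted p, with a log2 difference of 1.26 ± 0.30 (adjusted p = 3.4e-04). Lce1f was 2.35-fold higher (adjusted p = 0.0087) and Lce3a 3.26-fold higher (adjusted p = 0.017). Lce3a passed the filter on low counts through Stra8KO Veh, with 14 and 13 counts there against at most 5 in any other library. The direction of its call is thus partly set by the filter. The calls of Lce1f and Lce3a were fragile: for Lce1f the adjusted p was 0.14 without Stra8KO Veh replicate 2, 0.099 without Spo11KO Veh replicate 1 and 0.071 by DESeq2, and for Lce3a it was 0.083 to 0.12 without any one of the 4 Veh libraries, 0.059 with no filter beyond 1 count and 0.14 by DESeq2. Lce1g, not tested, was 3.17-fold higher in Stra8KO Veh. Among the Sprr genes only Sprr2h was higher (log2 0.55 ± 0.19, adjusted p = 0.012), and its call was lost without Stra8KO Veh replicate 1 (0.076), without Spo11KO Veh replicate 1 (0.25) and by DESeq2 (0.094). Sprr3 had 2 counts in each Veh group, and no fold is given.

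The keratins lower in Stra8KO Veh were Krt19 (log2 -1.19 ± 0.16, adjusted p = 1.4e-08), Krt222 (-0.93 ± 0.21, adjusted p = 1.3e-04), Krt27 (-1.33 ± 0.33, adjusted p = 4.3e-04), Krt28 (-2.22 ± 0.61, adjusted p = 0.0014), Krt18 (-0.85 ± 0.26, adjusted p = 0.0048) and Krt24 (-0.81 ± 0.27, adjusted p = 0.0092). Krt27 and Krt28 are inner root sheath keratins that lie near each other on chromosome 11. Krt28 passed the filter on low counts through Spo11KO Veh, with 14 and 23 counts there against at most 10 in any other library. The direction of its call is thus partly set by the filter. Krt80, a type II keratin, was the one keratin higher in Stra8KO Veh (log2 1.30 ± 0.52, adjusted p = 0.029). Leaving out single libraries removed the call of Krt18 (adjusted p = 0.077 without Stra8KO Veh replicate 1 and 0.19 without Spo11KO Veh replicate 1), of Krt24 (0.13 without Stra8KO Veh replicate 2 and 0.070 without Spo11KO Veh replicate 1), of Krt28 (0.054 without Spo11KO Veh replicate 2) and of Krt80 (0.36 without Stra8KO Veh replicate 1 and 0.25 without Spo11KO Veh replicate 2). DESeq2 did not call Krt24 (0.072) or Krt80 (0.12). Krt19, Krt27 and Lce1h kept their calls under every alternative run, as did Krt222 apart from the requirement of a fold of at least 2, since its difference was smaller.

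After NRRA, all 8 Sprr genes tested were higher in Stra8KO than in Spo11KO. Over the 27 genes, 14 were higher (35.0% of all tested genes were) and 1, Krt27, was lower (28.9% of all). Krt7, Krt73 and Sprr2e passed the filter on low counts through Stra8KO NRRA. Krt7 and Krt73 had most of their counts there, and Sprr2e had 13 and 14, against at most 8 in any other library. A high count of calls is thus partly set by the filter, and nothing is read from it. The median log2 difference was 1.21, or 1.16 with genes of few counts at their bound, against 0.07 over all tested genes. With libraries scaled by total counts alone, the median over all tested genes was -0.14 and 5348 of 13531 called genes were higher, against 7214 of 13170 here, while 13 of the 27 genes were called higher and 2 lower. In Veh the corresponding all-gene counts were 5417 of 12961 by total counts and 6501 of 12826 here. Fibroblast markers moved with genotype in the same direction: all 16 were called higher in Stra8KO in each medium, with median log2 differences of 0.96 in Veh and 0.97 in NRRA. The part of feeder cells in the Sprr and keratin differences was not tested.

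Sprr2g had the smallest adjusted p of these (log2 1.16 ± 0.13, adjusted p = 7.4e-11), a 2.24-fold higher level. Sprr2k (1.35 ± 0.23, adjusted p = 1.1e-06), Sprr1a (1.21 ± 0.23, adjusted p = 6.9e-06), Sprr2b (1.16 ± 0.26, adjusted p = 1.4e-04), Sprr2h (1.98 ± 0.46, adjusted p = 2.0e-04) and Sprr2d (0.80 ± 0.25, adjusted p = 0.0041) held under every alternative run, except that Sprr2d was under a required fold of at least 2. Sprr2i and Sprr2e, both under 1 CPM in all groups, were 3.39-fold (adjusted p = 0.012) and 2.66-fold (adjusted p = 0.031) higher. Sprr2i lost its call without Stra8KO NRRA replicate 2 (0.16), without Spo11KO NRRA replicate 2 (0.096) and by DESeq2 (0.062), and Sprr2e without Stra8KO NRRA replicate 1 (0.11), without Stra8KO NRRA replicate 2 (0.13), without Spo11KO NRRA replicate 2 (0.24), by total counts (0.065), with no filter beyond 1 count (0.086) and by DESeq2 (0.17). The direction of the Sprr2e call is partly set by the filter, which this gene passed through Stra8KO NRRA. Sprr2e and Sprr2i share 100-base windows over 1.09% and 1.16% of their transcripts. Sprr3, not tested, was 2.48-fold higher in Stra8KO NRRA, where the libraries of the genotypes did not overlap.

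Among the Lce genes, Lce1h was higher in Stra8KO NRRA (log2 1.67 ± 0.60, adjusted p = 0.014), on 20 against 8 counts, and lost its call without Stra8KO NRRA replicate 2 (0.33) and without Spo11KO NRRA replicate 1 (0.078). Lce1f had 4 against 5 counts and Lce3a 1 against 0, so no difference was detectable at this depth. Lce1g, not tested, had 19 against 9 counts.

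The keratins higher in Stra8KO NRRA were Krt24 (10.95-fold, log2 3.45 ± 0.43, adjusted p = 1.3e-09), Krt75 (13.4-fold, 3.74 ± 0.63, adjusted p = 1.2e-06), Krt7 (5.44-fold, 2.44 ± 0.54, adjusted p = 9.4e-05), Krt20 (2.32-fold, 1.21 ± 0.31, adjusted p = 6.3e-04) and Krt73. For Krt73 the ratio was 19.1 (95% exact counting interval 6.13 to 96.2, adjusted p = 2.6e-06). Krt7 and Krt73 passed the filter on low counts through Stra8KO NRRA, so the direction of their calls is partly set by the filter. All 3 counts of Krt73 in Spo11KO NRRA came from replicate 2, without which the fitted log2 difference went from 4.13 to 7.55 against a group at 0 counts. Krt27 was lower in Stra8KO (log2 -0.74 ± 0.33, adjusted p = 0.044), and this call was lost without Stra8KO NRRA replicate 2 (0.26), without Spo11KO NRRA replicate 1 (0.19), without Spo11KO NRRA replicate 2 (0.051), with no filter beyond 1 count (0.053) and by DESeq2 (0.14). Krt19, which differed between genotypes in Veh, had a log2 difference of -0.01 ± 0.23 after NRRA (adjusted p = 0.96).

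**Figure D4:**
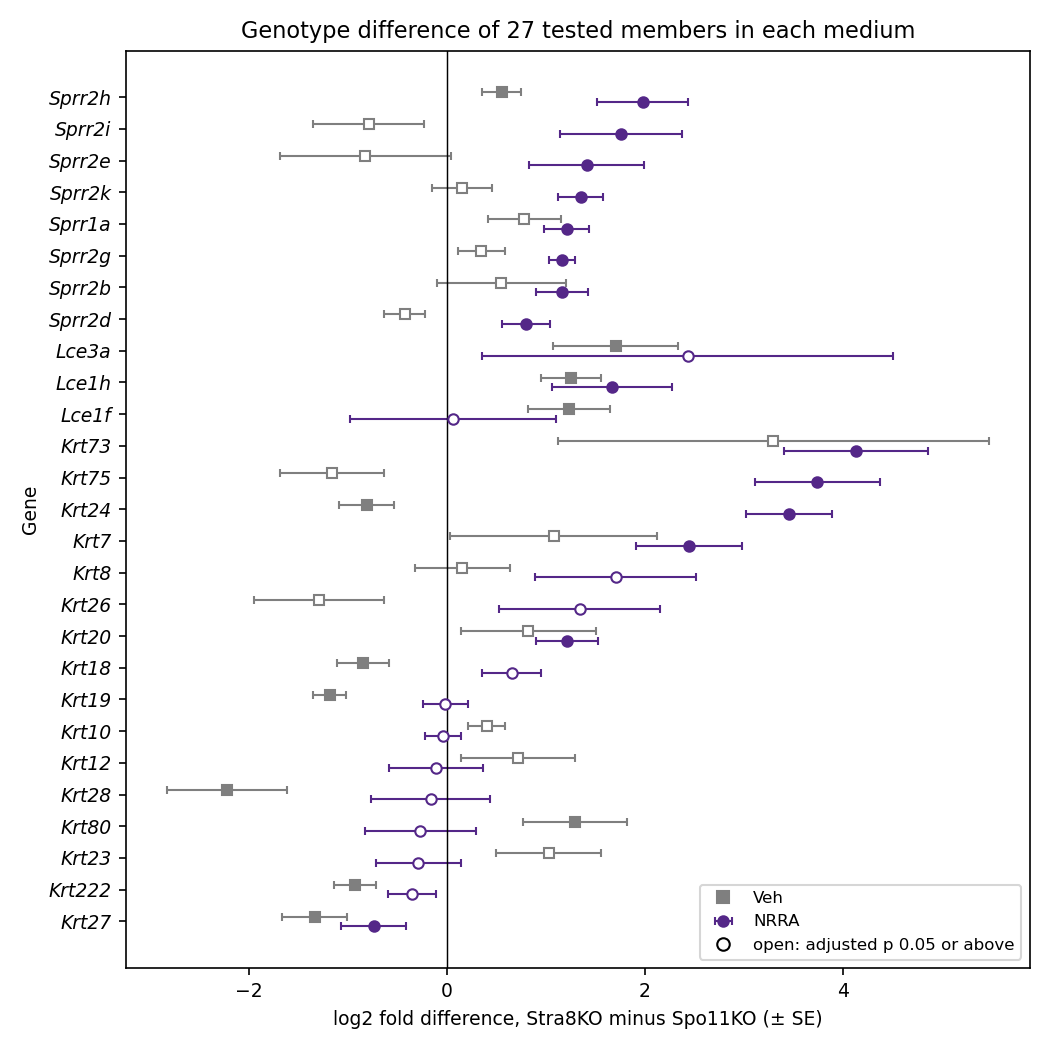
The log2 difference of Stra8KO minus Spo11KO (± SE) in Veh (grey squares) and NRRA (purple circles) for the 27 genes tested; filled symbols have an adjusted p under 0.05. All 8 Sprr circles are filled and right of 0, from 0.80 to 1.98, while 1 of the Sprr squares is filled; with genes of few counts such as Krt73 and Lce3a the value depends on the fit.

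The interaction, which is the NRRA difference in Stra8KO minus that in Spo11KO, tested whether the genotypes differed in their response. Of the 27 genes 9 were called higher (14.8% of all tested genes were) and 0 lower (10.3% of all). Genes that passed the filter on low counts through Stra8KO NRRA or Spo11KO Veh have a direction partly set by it. Nothing is read from these counts. At an unadjusted p under 0.05 the number lower was 1 (Krt80), and DESeq2 called 4 higher and 0 lower and gave no adjusted p for 2 of the 9 (Krt75 and Sprr2i). By total counts the all-gene split was 2188 higher of 5661 called, against 3051 of 5172 here, and the 9 and 0 for these genes were the same. The median over the 27 genes was 0.84, or 0.99 over the 24 without Krt7, Krt73 and Lce3a, against 0.01 over all tested genes.

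Of the 9 genes called, a pair of keratins had the largest interaction values. Krt75 reached 4.91 ± 0.84 (adjusted p = 7.3e-06) and Krt24 4.26 ± 0.52 (adjusted p = 4.3e-09). Krt75 passed the filter on low counts through Stra8KO NRRA (18 and 26 counts) and Spo11KO Veh (23 and 12 counts). Both groups enter the interaction with a plus sign, so the direction of its call is partly set by the filter. The other keratins called were Krt18 at 1.50 ± 0.40 (adjusted p = 0.0031) and Krt19 at 1.17 ± 0.29 (adjusted p = 0.0014). The log2 differences of NRRA minus Veh in Stra8KO and Spo11KO were 1.63 ± 0.50 and -3.28 ± 0.67 for Krt75, 0.24 ± 0.30 and -4.03 ± 0.40 for Krt24, and 0.11 ± 0.29 and -1.39 ± 0.27 for Krt18. For Krt19 the level was lower in each genotype, 1.97-fold in Stra8KO and 4.42-fold in Spo11KO. These 4 calls held without each library.

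The 5 Sprr genes with an interaction were Sprr2d (1.23 ± 0.32, adjusted p = 0.0029), Sprr2k (1.20 ± 0.38, adjusted p = 0.016), Sprr2i (2.55 ± 0.84, adjusted p = 0.019), Sprr2g (0.81 ± 0.27, adjusted p = 0.023) and Sprr2h (1.43 ± 0.51, adjusted p = 0.031). Sprr2g and Sprr2h, which differed in opposite directions after NRRA, thus had interactions of the same sign. Of these calls, Sprr2d lost significance without Spo11KO Veh replicate 1 (adjusted p = 0.053), and Sprr2k without Stra8KO Veh replicate 1 (0.17), Stra8KO NRRA replicate 2 (0.14) or Spo11KO Veh replicate 1 (0.051) and by DESeq2 (0.094). Sprr2g lost it without Stra8KO Veh replicate 2 (0.13), Spo11KO Veh replicate 2 (0.14) or Spo11KO NRRA replicate 1 (0.062), with no filter beyond 1 count (0.059) and by DESeq2 (0.086). Sprr2h lost it without any one library other than Stra8KO Veh replicate 1 and Spo11KO Veh replicate 1 (adjusted p of 0.057 to 0.13 in the 6 fits), with no filter beyond 1 count (0.067) and by DESeq2 (0.091). Sprr2i lost it without Stra8KO Veh replicate 1 (0.054), Stra8KO Veh replicate 2 (0.069), Stra8KO NRRA replicate 2 (0.14), Spo11KO Veh replicate 1 (0.18) or Spo11KO NRRA replicate 2 (0.086). Sprr2i passed the filter on low counts through Stra8KO NRRA replicate 2 (15 counts) and Spo11KO Veh replicate 1 (18 counts). The direction of its interaction is thus also partly set by the filter. No Lce gene was called, and the interaction of Lce1h was 0.41 ± 0.66 (adjusted p = 0.72).

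Genes of the same pathways outside these families were counted on fixed lists. The shares of all tested genes to set beside these counts are 31.6% higher and 30.7% lower in Veh, 35.0% higher and 28.9% lower in NRRA, and 14.8% higher and 10.3% lower in the interaction. Of 35 genes of the cornified envelope and of cornification, 20 passed the filter, of which 5 were higher and 3 lower in Stra8KO Veh and 8 higher and 4 lower in Stra8KO NRRA, with median log2 differences of 0.25 and 0.27. Ivl was higher in Stra8KO in Veh (log2 1.53 ± 0.11, adjusted p = 1.5e-17) and in NRRA (1.59 ± 0.17, adjusted p = 2.6e-11). Lor (loricrin), a bulk protein of the envelope, had 4.87, 5.94, 4.61 and 1.34 CPM in Stra8KO Veh, Stra8KO NRRA, Spo11KO Veh and Spo11KO NRRA, and its interaction was 2.07 ± 0.28 (adjusted p = 5.0e-08). Evpl (envoplakin) and Alox12b, a lipoxygenase of the skin barrier, were lower in Stra8KO NRRA (log2 -2.87 ± 0.13, adjusted p = 3.1e-24, and -2.52 ± 0.23, adjusted p = 7.3e-14).

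Desmosome genes, whose plaques anchor keratin filaments, had 9 of 16 members past the filter, with 4 higher and 3 lower in Stra8KO Veh and 3 higher and 3 lower in Stra8KO NRRA. Summed levels of the 16 genes were 191 to 206 CPM in Stra8KO Veh and 194 to 203 CPM in Stra8KO NRRA. In Spo11KO the sums were 148.7 to 149.3 CPM in Veh and 163.8 to 164.6 CPM in NRRA. Within the list, Dsg1a, Dsg1b, Dsg1c, Dsg4 and Dsc1 of cornifying epithelia had group means of at most 0.072 CPM. Epidermal regulators had 5 of 19 higher and 11 lower in Stra8KO Veh, 8 higher and 7 lower in Stra8KO NRRA, and 6 higher and 3 lower in the interaction. Esrp1, a splicing regulator of epithelial cells, had the smallest adjusted p among them, with an interaction of 1.82 ± 0.08 (adjusted p = 4.4e-25). Fosl1, an AP-1 subunit, had 92.2, 21.2, 46.4 and 12.3 CPM in the 4 groups. Other intermediate filament genes split evenly, with 4 higher and 5 lower of 12 in Veh and 5 and 5 in NRRA. Of these Nefm, a neurofilament gene, had an interaction of 3.41 ± 0.11 (adjusted p = 4.3e-30). Of 9 retinoic acid response genes, Stra8 among them, 7 were higher and 2 lower in Stra8KO in each medium, and 9 in Stra8KO (21.6% of all tested genes) and 8 in Spo11KO (24.5% of all) were called higher after NRRA.

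Marker genes of epithelial and other cell types were measured in the same libraries. The summed level of 12 keratinocyte markers was 60.8 to 65.3 CPM in Veh and 40.1 to 42.3 in NRRA for Stra8KO, and 48.1 to 49.99 in Veh and 35.7 to 38.0 in NRRA for Spo11KO, with Ivl the largest part in Stra8KO Veh. Dsg3, Dsc3, Flg and Lamb3 were each under 0.3 CPM in every group mean, and Trp63, the master factor of stratified epithelia, was at 0.85 to 1.34 CPM. Of the 8 keratinocyte markers tested, 1 was higher and 1 lower in Stra8KO Veh, and 3 and 3 in Stra8KO NRRA. The 12 epithelial markers, Epcam and Esrp1 the most abundant, summed to 159.7 to 165, 132 to 135, 302 to 310.1 and 162 to 167 CPM in Stra8KO Veh, Stra8KO NRRA, Spo11KO Veh and Spo11KO NRRA, with 0 higher and 6 lower in Stra8KO Veh. These sums were highest in Spo11KO Veh, as was the keratin sum of 30.3 ± 0.40 CPM. Germ cell marker sums were likewise higher in Spo11KO Veh than in Stra8KO Veh. Whether epithelial cells, germ cells or others carried these RNAs was not tested. Summed Sertoli cell markers were 41.2 to 47.1, 28.8 to 29.6, 34.6 to 36.6 and 15.5 to 16.1 CPM, and mesothelial markers 5.49 to 5.95, 13.6 to 14.3, 5.05 to 5.39 and 5.21 to 6.11 CPM, most of it Wt1, which is in both lists. Smooth muscle markers were at 102 to 111, 1045 to 1087, 56.8 to 59.6 and 507 to 529 CPM, with 5 of 5 higher in Stra8KO NRRA. Macrophage markers were at 30.3 to 31.9, 28.7 to 29.6, 24.9 to 28.004 and 19.96 to 21.8 CPM, with 4 of 5 higher in Stra8KO NRRA. All 8 germ cell markers were lower in Stra8KO in each medium. The part of any of these cell types in the differences above was not tested.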

How the data were processed

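The 8 libraries were made from poly(A) RNA of the cultures. The authors deposited raw read counts per Ensembl gene, whole numbers without normalization and without pooling of replicates. According to the submitters' processing notes, the tools were bcl2fastq, STAR 2.6.1c and featureCounts 1.6.4 with the genome build mm10. The annotation release, strand setting and treatment of multi-mapping reads are not given in the sources used here, so counts of paralogs and overlapping genes are uncertain.

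Genes were kept by filterByExpr (20588 of 55421, holding 99.88% of counts), scaled by TMM and fitted in 1 group-means model over all 8 libraries with edgeR 4.0.16 in R 4.3.3. The quasi-likelihood F test was two-sided, with Benjamini-Hochberg adjustment over all tested genes and a threshold of 0.05. CPM are counts per 1e+06 scaled counts, and lengths are merged exons of GENCODE M21. SE is the absolute log2 difference divided by the square root of F. The scripts were tested on simulated data. DESeq2 1.42.0 was run as an alternative, beside those described at the end. Depth was 20960794 to 27038868 counts per library.

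The families, gene lists and tests were chosen with earlier results of these data known. Named were Sprr3 and Lce1g (values only), every gene of these families with a group mean of at least 1 CPM, other tested genes called in a genotype comparison or the interaction with a fold of at least 2, and up to 4 genes per list with the smallest adjusted p. Ratios against 1 to 3 counts carry exact 95% intervals, and groups at 0 counts were set to a floor of 3 counts. Krt5, Krt14 and Krt26, the desmosomal and keratinocyte markers at low levels and the genes of the chromosome 3 cluster were named outside this rule, after their values were seen. Libraries of a group differed by more than sampling noise and were counted as separate samples.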

Additional observations from a re-analysis of the deposited data

Results flagged for a closer look

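For 9 of the 27 genes tested, the difference between NRRA and Veh was itself different between Stra8KO and Spo11KO (interaction term of edgeR's quasi-likelihood test, adjusted p under 0.05). The log2 interaction, Stra8KO minus Spo11KO, was 4.91 for Krt75, 4.26 for Krt24, 1.50 for Krt18 and 1.17 for Krt19. Among the Sprr genes it was 2.55 for Sprr2i, 1.43 for Sprr2h, 1.23 for Sprr2d, 1.20 for Sprr2k and 0.81 for Sprr2g. The sign was positive for all 9, and for Krt75 and Sprr2i it is partly set by the filter on low counts. Krt24 in Spo11KO NRRA rested on 4 and 5 counts, and Krt75 there on 2 and 2 counts. Groups of 2 libraries are too small for a search for single outlying libraries.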

How the results depend on the processing

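Of 989 values of single genes past the threshold that were recomputed under an alternative other than the fold requirement, 902 kept their direction and call, 87 kept their direction and lost the call, and 0 changed sign, and DESeq2 gave no adjusted p for 2 more. In Veh, 11 genes differed between genotypes; the number was 7 with a fold of at least 2 as well, 6 by DESeq2, and 6 to 12 with 1 library left out, the lowest without Spo11KO Veh replicate 1 and 7 without Stra8KO Veh replicate 1. The interaction had 9 calls, 4 by DESeq2, which gave no adjusted p for 2 of the 9. Counts for the other comparisons stayed within 1.5 times under all alternatives. By total counts, levels per kb were 13.3 for Lce1g, 6.99 for Sprr2h and 4.15 for Sprr2d in Stra8KO Veh, 20.4 for Sprr2g in Stra8KO NRRA, 10.5 for Sprr2g in Spo11KO NRRA and 4.78 for Krt19 in Spo11KO Veh, the last being 5.50 by the longest transcript. These scalings differ in the median over all genes by construction. For the other changes the cause was not tested. The fits without 1 library have fewer samples.

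With the replicate block, 12 genes differed between genotypes in Veh, 15 after NRRA and 9 in the interaction, and 14 and 19 between media. Deviations of same-numbered libraries correlated at -0.034 to 0.079, so the numbers were not taken as pairs. Counts of under 10 in a group limit Lce1f, Lce1h, Lce3a, Sprr2b, Sprr2e, Sprr2i, Krt7, Krt8, Krt20, Krt24, Krt26, Krt28, Krt73 and Krt75. For these genes a difference may be missed or its size be uncertain.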

Other observations

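Krt8, the type II partner of Krt18, and Krt23 passed the filter without a called genotype difference or interaction, and are named here after their values were seen. Krt8 had 0.58 and 0.96 CPM in Veh and 0.39 and 0.23 in NRRA for Stra8KO, and 1.01 and 0.35 in Veh and 0.077 and 0.10 in NRRA for Spo11KO. Its libraries in Spo11KO Veh differed by more than those of any other group, and 16.9% of its transcript windows are shared with Krt8-ps. Krt23 had 0.58 and 0.65, 0.68 and 0.60, 0.29 and 0.30, and 0.85 and 0.72 CPM in the same order of groups.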
